A study of Mus musculus with 18 samples.

Results

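The genes described here are 36 mouse genes of the unfolded protein response and of the response to amino acid shortage. They were taken by name from a list drawn up with earlier results of these data known. All 36 were measured among the 19938 genes of the array set. The list holds 3 sensors and transcription factors of the endoplasmic reticulum (Ern1, Atf6 and Xbp1), 12 chaperones and folding enzymes, 4 genes that remove misfolded proteins, 10 regulators and targets of the integrated stress response, and 7 genes of amino acid synthesis, one-carbon metabolism and amino acid transport. RNA came from C2C12 cells, a mouse myoblast line that forms myotubes in low serum, on 18 Affymetrix arrays in 6 groups of 3. All groups had been depleted of their own TAF3, a subunit of the basal transcription factor TFIID, by stable shRNA from transduced viruses, and carried either KK-TAF3, a murine TAF3 mutant that no longer binds phosphoinositides, or wild-type murine TAF3 (WT-TAF3).

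The 3 genotypes were KK-TAF3 with sh-PIP4K2B, WT-TAF3 with sh-PIP4K2B and WT-TAF3 without depletion of PIP4K2B, the lipid kinase that removes nuclear PI5P. The last is called shX here after the control shRNA in the study's figures, since the array labels name no control shRNA for it. Each genotype was measured after etoposide, a topoisomerase II inhibitor that breaks DNA, at 10 µM for 7 hours, or after differentiation in horse serum for 2 days by the array labels and 3 days by the series' design text. Cells were grown in Hams F12 medium with fetal calf serum before treatment. The sources used here do not say whether the lines are single clones. No array of untreated myoblasts was analysed here, so the effect of etoposide, of the serum and of differentiation cannot be told apart when the treatments are compared.

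When unfolded proteins accumulate in the endoplasmic reticulum, the kinase and nuclease IRE1 (encoded by Ern1) splices the Xbp1 transcript, ATF6 is cut to release a transcription factor, and the kinase PERK phosphorylates the translation factor eIF2. XBP1 and ATF6 then raise chaperone and degradation genes. Phosphorylated eIF2, which other kinases also produce when amino acids run short, favours translation of ATF4, and ATF4 raises genes that make and import amino acids. This second branch is known as the integrated stress response.

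Known promoter elements of these branches were looked up in RefSeq. Windows (build GRCm38.p6) from 250 bases before to 50 bases after the annotated start were matched for 33 of the 36 genes, leaving Atf6, Manf and Slc7a5. Both strands were searched for the ER stress response element (CCAAT, 9 bases of any kind, CCACG), its second form (ATTGG, 1 base of any kind, CCACG), the element UPRE (TGACGTGG) and the C/EBP-ATF composite element (TTNCATCA). The first was present in 7 of the 33 genes (Hspa5, Hsp90b1, Calr, Dnajc3, Pdia6, Creld2 and Syvn1), against 0.137% of the 27025 genes with a window. The second form was present in Dnajb11 and Herpud1, against 0.0444% of genes. The composite element was present in 6 (Herpud1, Trib3, Chac1, Nupr1, Vldlr and Asns), against 4.51% of genes, and UPRE in 0 of the 33, against 0.714%. The first 3 elements all contain the letters CCACG on 1 strand, so that matches can overlap, and Hsp90b1 held the first element 2 times. A match is a description of letters, not of a site in use. The elements were chosen as known for these branches and the genes as their members, so a share above that of all genes is no test.

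The windows of a pair of chaperone genes with the ER stress response element and of a pair of ATF4 target genes with the composite element are printed 5′ to 3′ on the strand of the gene, with the matched element in capitals, to set both elements side by side for genes described with their values. Hspa5 lies at chr2:34771840-34772139 (plus strand), Pdia6 at chr12:17266339-17266638 (plus strand), Asns at chr6:7693160-7693459 (minus strand) and Chac1 at chr2:119350992-119351291 (plus strand).
Hspa5: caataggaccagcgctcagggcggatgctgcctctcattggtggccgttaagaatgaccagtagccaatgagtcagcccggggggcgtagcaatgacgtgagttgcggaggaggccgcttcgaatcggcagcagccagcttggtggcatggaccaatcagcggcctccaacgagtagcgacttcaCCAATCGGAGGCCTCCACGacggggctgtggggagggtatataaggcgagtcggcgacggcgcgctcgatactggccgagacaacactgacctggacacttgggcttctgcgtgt
Pdia6: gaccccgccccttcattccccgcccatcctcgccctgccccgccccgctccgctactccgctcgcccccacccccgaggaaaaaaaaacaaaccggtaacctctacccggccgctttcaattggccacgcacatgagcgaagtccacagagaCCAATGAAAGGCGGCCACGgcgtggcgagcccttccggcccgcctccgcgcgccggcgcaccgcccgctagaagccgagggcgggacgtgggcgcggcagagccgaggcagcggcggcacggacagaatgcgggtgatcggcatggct
Asns: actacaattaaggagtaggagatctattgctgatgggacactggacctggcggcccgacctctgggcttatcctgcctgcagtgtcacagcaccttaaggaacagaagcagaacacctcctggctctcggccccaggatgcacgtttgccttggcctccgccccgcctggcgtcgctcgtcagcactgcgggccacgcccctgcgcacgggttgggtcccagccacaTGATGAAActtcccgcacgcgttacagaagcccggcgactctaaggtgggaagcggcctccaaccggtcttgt
Chac1: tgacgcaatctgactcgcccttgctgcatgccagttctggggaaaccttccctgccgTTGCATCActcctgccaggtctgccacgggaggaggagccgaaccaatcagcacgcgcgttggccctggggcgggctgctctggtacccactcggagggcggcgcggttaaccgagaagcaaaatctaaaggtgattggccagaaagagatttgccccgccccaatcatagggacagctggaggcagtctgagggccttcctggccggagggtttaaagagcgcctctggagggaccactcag
The elements began at base -65 of Hspa5, -98 of Pdia6, -23 of Asns (complementary strand) and -193 of Chac1, with the start site counted as 0.

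The values are log2 signals, in which a difference of 1 is a doubling. Levels are comparable between arrays for 1 gene and not between genes. A filter on dim genes at the median signal of all genes (7.97) would keep 35 of the 36 and drop Vldlr, at a mean of 6.18. Arrays of a group correlated with r between 0.994 and 0.999 over all values, and array medians lay between 7.25 and 7.46. The median SD of these genes within a group was 0.0362 to 0.039 in the 3 differentiated groups and 0.0771 to 0.0846 after etoposide. Pip4k2b, the target of the shRNA, read 9.92, 9.74 and 9.63 in etoposide-treated WT-TAF3 sh-PIP4K2B cells against 10.75, 10.71 and 10.48 in WT-TAF3 shX cells, and 9.46, 9.64 and 9.55 against 10.69, 10.69 and 10.68 after differentiation. The targeted gene was thus lower on every depleted array of both treatments. Macrophage, fat cell and keratinocyte markers had list means between 6.65 and 7.17 on every array.

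Ddit4, Asns, Psat1 and Phgdh were higher after etoposide than after differentiation in all 3 genotypes. The chaperone Hspa5 and the factor Ddit3, which are commonly read as signs of unfolded proteins, passed an adjusted p of 0.05 in none of them. Other genes of the unfolded protein response did pass it in all 3. Pdia6, Creld2, Manf and Edem1 were higher (7.58% of all genes) and Atf6 was lower (5.59%). Of the 4 higher genes, only Pdia6 exceeded 1.4-fold, in WT-TAF3 shX cells. A gene was called when the Benjamini-Hochberg adjusted p of limma over all genes was under 0.05 and the change exceeded 1.4-fold. By that rule 4 of the 36 rose and 1 fell in KK-TAF3 sh-PIP4K2B cells (3.52% of all genes rose and 4.81% fell), 5 rose and 1 fell in WT-TAF3 sh-PIP4K2B cells (3.64% and 6.3% of all genes), and 6 rose and 0 fell in WT-TAF3 shX cells (4.71% and 2.92%). In all 3 genotypes 4 of the 36 rose and 0 fell, against 2% and 2.15% of all genes. The median change of the 36 was 0.12, 0.13 and 0.19 in KK-TAF3 sh-PIP4K2B, WT-TAF3 sh-PIP4K2B and WT-TAF3 shX cells, that of all genes 0.03, 0.07 and -0.05, and that of genes above the median signal, where 35 of the 36 lie, -0.0026, -0.04 and 0.06.

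**Figure D1:**
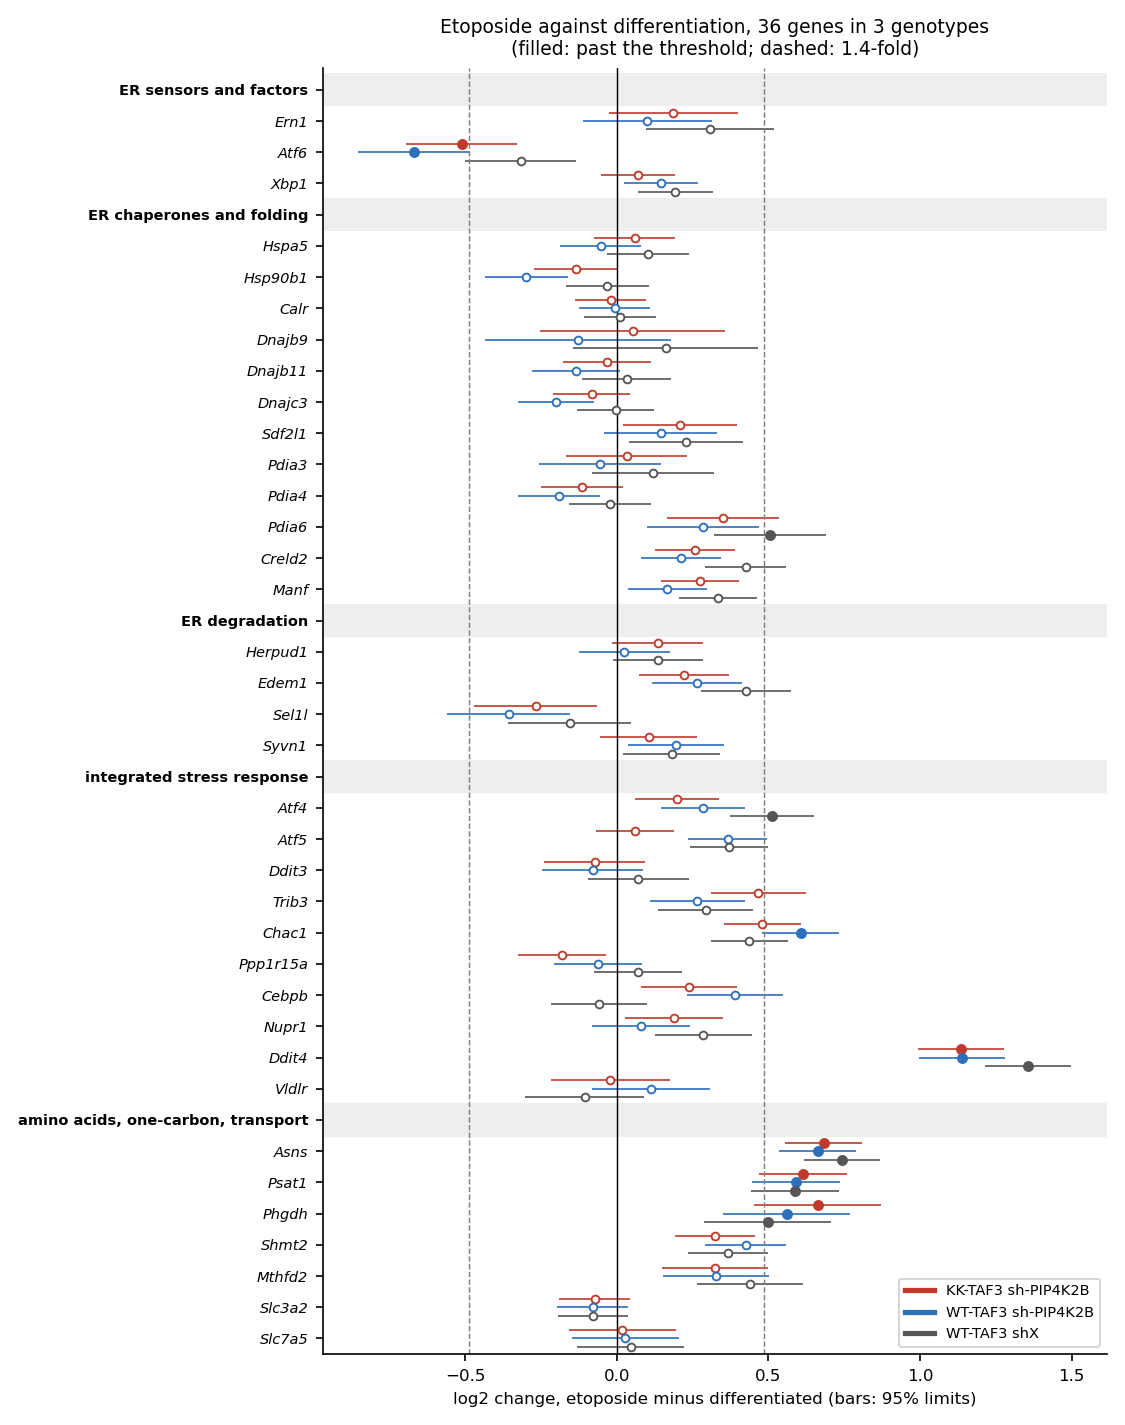
Change of each of the 36 genes between etoposide-treated and differentiated cells on the log2 scale, by role, in 3 genotypes, with 95% limits from limma (3 arrays a group). Filled points passed the adjusted p and the 1.4-fold limit (dashed lines), and those of Ddit4, Asns, Psat1 and Phgdh lie to the right in every genotype, with Ddit4 between 1.13 and 1.36.

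Ddit4, which encodes an inhibitor of the growth kinase mTORC1 and is a known target of ATF4 and of p53, had the largest change of the 36. Its log2 signal was 11.56, 11.54 and 11.62 in etoposide-treated KK-TAF3 sh-PIP4K2B cells, against 10.39, 10.45 and 10.47 in differentiated ones. WT-TAF3 sh-PIP4K2B cells read 11.48, 11.49 and 11.59 after etoposide, against 10.37, 10.43 and 10.33 after differentiation. WT-TAF3 shX cells read 11.18, 11.19 and 11.39, against 9.87, 9.87 and 9.95. No etoposide array overlapped a differentiated one. The changes were 1.13, 1.14 and 1.36 (SE 0.0674 each), or 2.196-, 2.203- and 2.562-fold, with limma adjusted p of 5.7e-10, 4.2e-10 and 4.84e-11, and ranked 62, 69 and 36 from the highest among 19938 genes. The difference between the WT-TAF3 sh-PIP4K2B and the shX change was -0.22 (95% limits -0.42 to -0.02, limma adjusted p = 0.125), which did not pass.

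Asns, the enzyme that makes asparagine, read 12.98, 12.99 and 12.99 after etoposide and 12.28, 12.33 and 12.30 after differentiation in KK-TAF3 sh-PIP4K2B cells. In WT-TAF3 sh-PIP4K2B cells it read 13.03, 12.92 and 13.09, against 12.31, 12.37 and 12.36. In WT-TAF3 shX cells it read 12.91, 12.94 and 13.03, against 12.25, 12.21 and 12.19. The groups stood apart in each genotype by changes of 0.68, 0.66 and 0.74 (SE 0.0598), with adjusted p of 9.5e-08, 1.2e-07 and 3.26e-08. The printed Asns window holds the composite element, whereas the windows of Ddit4, Psat1 and Phgdh matched none of the 4 elements searched.

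Psat1 and Phgdh catalyse consecutive steps of serine synthesis. Psat1 read 12.10, 12.15 and 12.31 after etoposide against 11.53, 11.59 and 11.59 after differentiation in KK-TAF3 sh-PIP4K2B cells, 12.04, 11.92 and 12.05 against 11.37, 11.44 and 11.44 in WT-TAF3 sh-PIP4K2B cells, and 11.92, 11.94 and 12.10 against 11.44, 11.37 and 11.39 in WT-TAF3 shX cells. Its changes were 0.61, 0.59 and 0.59 (SE 0.0696), with adjusted p of 2.39e-06, 3.1e-06 and 4.04e-06. Phgdh read 11.10, 11.16 and 11.25 against 10.42, 10.49 and 10.61 in KK-TAF3 sh-PIP4K2B cells, 10.92, 11.02 and 11.16 against 10.41, 10.55 and 10.47 in WT-TAF3 sh-PIP4K2B cells, and 10.83, 10.91 and 11.29 against 10.57, 10.49 and 10.48 in WT-TAF3 shX cells. Both genes were thus higher on every etoposide array, and the Phgdh changes of 0.66, 0.56 and 0.50 (SE 0.0999) had adjusted p of 6.15e-05, 0.000287 and 0.00103. In shX cells Phgdh rested on replicate 3, at 11.29. Without that etoposide array the change was 0.36, short of 1.4-fold, and without differentiated shX replicate 3 it was 0.48. With arrays centred on their median both genes were short of 1.4-fold in WT-TAF3 sh-PIP4K2B cells, at 0.48 for Psat1 and 0.45 for Phgdh, as was Phgdh, at 0.40, with the array median as a covariate.

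**Figure D2:**
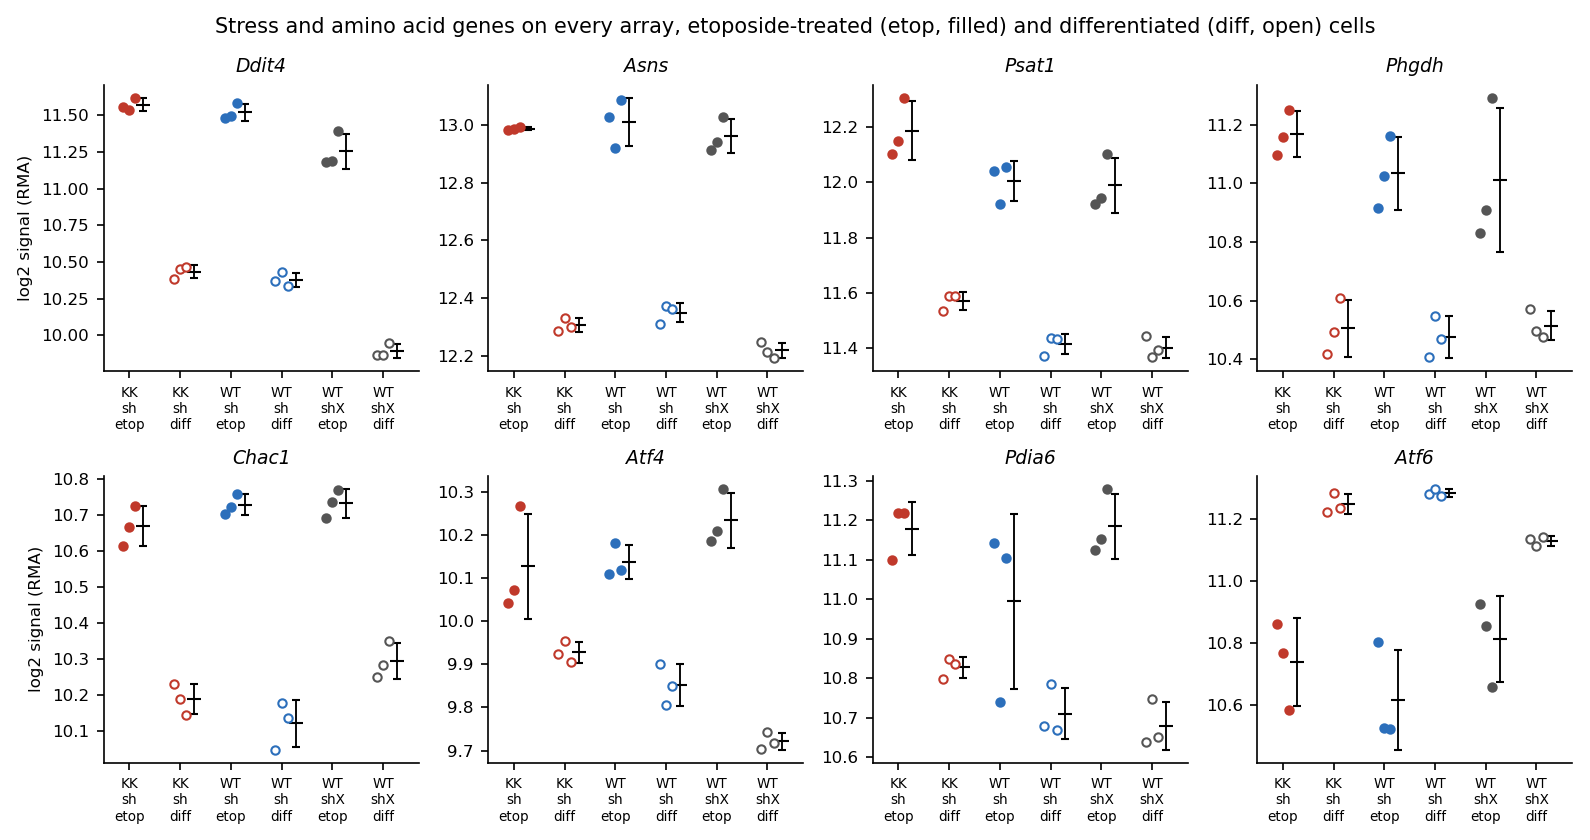
The log2 signal of 8 genes on every array, with etoposide-treated cells (filled) left of differentiated cells (open) in each genotype, and the mean and SD of 3 arrays as bars. Ddit4, Asns, Psat1, Phgdh, Chac1 and Atf4 lie higher on every etoposide array of each genotype, Atf6 lies lower, and Pdia6 overlaps in WT-TAF3 sh-PIP4K2B cells.

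The other genes of amino acid supply were one-carbon enzymes and a transporter. The mitochondrial one-carbon enzymes Shmt2 and Mthfd2 were higher on every etoposide array, by 0.32, 0.42 and 0.37 for Shmt2 and by 0.32, 0.33 and 0.44 for Mthfd2 in the genotype order above, all with an adjusted p under 0.05 and all short of 1.4-fold. Slc3a2 and Slc7a5, which form a transporter of large neutral amino acids, differed by -0.07 to -0.08 and by 0.02 to 0.05, with 95% limits between -0.20 and 0.22. The 7 genes had median changes of 0.32, 0.42 and 0.44.

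Among the 10 regulators and targets of the integrated stress response, Atf4 itself rose past the threshold in WT-TAF3 shX cells. Its log2 signal was 10.19, 10.21 and 10.31 there, against 9.70, 9.74 and 9.72 after differentiation, a change of 0.51 (SE 0.0662, limma adjusted p = 1.09e-05). In the KK-TAF3 and WT-TAF3 sh-PIP4K2B cells the change was 0.20 and 0.28, short of 1.4-fold, and the difference between the WT-TAF3 sh-PIP4K2B and shX changes was -0.23 (95% limits -0.42 to -0.03, limma adjusted p = 0.108). Without etoposide shX replicate 3 the shX change was 0.48, short of 1.4-fold. Chac1, which degrades glutathione and is a target of ATF4, read 10.70, 10.72 and 10.76 against 10.05, 10.18 and 10.14 in WT-TAF3 sh-PIP4K2B cells, a change of 0.61 (SE 0.0606, limma adjusted p = 4.24e-07). It differed by 0.48 in KK-TAF3 cells and 0.44 in shX cells without reaching 1.4-fold. Trib3, a pseudokinase induced by ATF4, differed by 0.47, 0.27 and 0.29 in KK-TAF3, WT-TAF3 sh-PIP4K2B and shX cells, again with adjusted p under 0.05 and short of 1.4-fold. Atf5 differed by 0.06, 0.37 and 0.37.

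Ddit3, which encodes the proapoptotic factor CHOP, and Ppp1r15a, the inducible regulator of the eIF2 phosphatase, passed the adjusted p in none of the 3 genotypes. Ddit3 differed by -0.07, -0.08 and 0.07, with 95% limits between -0.24 and 0.24, and Ppp1r15a by -0.18, -0.06 and 0.07. Vldlr, a lipoprotein receptor, differed by -0.02, 0.11 and -0.11. Cebpb differed by 0.24, 0.39 and -0.06 and Nupr1, a small stress-induced chromatin protein, by 0.19, 0.08 and 0.29.

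The 12 chaperones and folding enzymes had median changes of 0.04, -0.05 and 0.11, and 3 of them passed the adjusted p in all 3 genotypes (7.58% of all genes higher). Hspa5, which encodes the main chaperone BiP, read 13.13, 13.12 and 13.24 after etoposide against 13.10, 13.12 and 13.09 after differentiation in KK-TAF3 sh-PIP4K2B cells, 13.04, 12.94 and 13.13 against 13.09, 13.09 and 13.08 in WT-TAF3 sh-PIP4K2B cells, and 13.13, 13.22 and 13.29 against 13.10, 13.11 and 13.12 in shX cells. Its changes of 0.06, -0.05 and 0.10 had 95% limits between -0.19 and 0.24. Pdia6, a disulfide isomerase whose window holds the same element as that of Hspa5, rose in shX cells to 11.13, 11.15 and 11.28, against 10.64, 10.75 and 10.65, a change of 0.51 (SE 0.0878, limma adjusted p = 0.000265). Without etoposide shX replicate 3 that change was 0.46 and with the array median as a covariate 0.48, both short of 1.4-fold. Pdia6 differed by 0.35 in KK-TAF3 and by 0.28 in WT-TAF3 sh-PIP4K2B cells, where 1 etoposide array read 10.74, within the differentiated range. Creld2 and Manf, small secreted proteins of the unfolded protein response, differed by 0.26, 0.21 and 0.42 and by 0.27, 0.17 and 0.33, all with an adjusted p under 0.05 and none past 1.4-fold. Hsp90b1, Calr, Dnajb9, Dnajb11, Dnajc3, Sdf2l1, Pdia3 and Pdia4 differed by between -0.30 (Hsp90b1 in WT-TAF3 sh-PIP4K2B cells) and 0.23 (Sdf2l1 in shX cells).

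Of the sensors, Atf6 fell after etoposide. It read 10.86, 10.77 and 10.58 against 11.22, 11.28 and 11.24 in KK-TAF3 sh-PIP4K2B cells, 10.80, 10.53 and 10.52 against 11.28, 11.30 and 11.28 in WT-TAF3 sh-PIP4K2B cells, and 10.93, 10.86 and 10.66 against 11.14, 11.11 and 11.14 in shX cells. Every etoposide array was below every differentiated array. The change was -0.51 (SE 0.087, limma adjusted p = 0.00022) and -0.67 (limma adjusted p = 1.02e-05) in the KK-TAF3 and WT-TAF3 sh-PIP4K2B cells, and -0.32 (limma adjusted p = 0.0116) in shX cells, where it did not reach 1.4-fold. In KK-TAF3 cells it was short of that too, at -0.43, without etoposide replicate 3 and, at -0.41, with the array median as a covariate. Ern1 differed by 0.19, 0.10 and 0.31 and Xbp1, whose splicing these values do not resolve, by 0.07, 0.15 and 0.19. Among the degradation genes Edem1, a lectin that sends misfolded glycoproteins to degradation, differed by 0.22, 0.26 and 0.43, and Sel1l, the scaffold of the ubiquitin ligase encoded by Syvn1, by -0.27, -0.36 and -0.15. Herpud1 and Syvn1 differed by 0.03 to 0.20.

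Counted by the adjusted p alone, without a fold limit, 14 of the 36 were higher and 2 lower in KK-TAF3 sh-PIP4K2B cells (12.8% and 12.6% of all genes), 15 and 5 in WT-TAF3 sh-PIP4K2B cells (18.7% and 16%), and 17 and 1 in shX cells (14.6% and 8.57%). In all 3 genotypes 13 were higher and 1 (Atf6) was lower, against 7.58% and 5.59% of all genes. The 13 were 5 of the 7 amino acid genes, 4 of the 10 integrated stress response genes (Atf4, Trib3, Chac1 and Ddit4), 3 of the 12 chaperones (Pdia6, Creld2 and Manf) and Edem1.

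Of 14 other measured targets of ATF4 and CHOP, 6, 5 and 4 rose and 2, 3 and 1 fell in KK-TAF3 sh-PIP4K2B, WT-TAF3 sh-PIP4K2B and shX cells, where 3.52%, 3.64% and 4.71% of all genes rose and 4.81%, 6.3% and 2.92% fell. Sesn2, an inhibitor of mTORC1 that p53 also targets, rose by 1.64, 1.66 and 1.71, and Cth, which makes cysteine, by 1.37, 1.20 and 1.12. Cth read 9.99, 10.15 and 10.12 against 8.73, 8.75 and 8.64 in KK-TAF3 sh-PIP4K2B cells, 9.87, 9.59 and 9.85 against 8.41, 8.70 and 8.61 in WT-TAF3 sh-PIP4K2B cells, and 9.43, 9.68 and 9.91 against 8.59, 8.57 and 8.49 in shX cells. The stress factor Atf3 rose by 0.77, 0.73 and 0.85 and the secreted Stc2 by 0.63, 0.52 and 0.49. Ndrg1, a growth-arrest gene, fell by 0.91, 1.04 and 0.84. Of 13 further genes of amino acid synthesis and transport 3, 3 and 4 rose and 0 fell, among them the mitochondrial folate enzyme Aldh1l2 by 0.62, 0.60 and 0.68. The phosphatase Psph of serine synthesis rose by 0.64 and 0.53 in KK-TAF3 and WT-TAF3 sh-PIP4K2B cells and differed by 0.46 in shX cells.

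Among genes of translation and of the endoplasmic reticulum outside the list, 0 of 16 cytosolic aminoacyl-tRNA synthetases were called by limma in any genotype, with median changes of 0.09, 0.11 and 0.22. Their highest changes, 0.33, 0.35 and 0.38, were short of 1.4-fold, so a looser p could add no rise. Of 27 other folding and translocation genes 1, 1 and 3 rose and 0, 1 and 0 fell, and the translocon subunit Sec61b rose in all 3 genotypes, by 0.58, 0.51 and 0.60. Of 15 other degradation genes 0 rose, and Edem3 fell in KK-TAF3 and WT-TAF3 sh-PIP4K2B cells, by 0.56 and 0.75. Of 7 other transducers Creb3l2 fell, by 0.76, 0.58 and 0.54, and of 6 kinases and phosphatase regulators of eIF2, Nck1 fell by 0.67, 1.01 and 0.54 and the kinase Eif2ak2 by 0.72 in WT-TAF3 sh-PIP4K2B cells. Lists were not compared with each other by a test.

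Genes of other programmes were also called between the same groups, in which 3.52%, 3.64% and 4.71% of all genes rose and 4.81%, 6.3% and 2.92% fell. Of 12 p53 response genes, 8 rose in each genotype, with list means of 10.85 to 10.86 on etoposide-treated KK-TAF3 arrays against 10.17 to 10.18 on differentiated ones, 10.81 to 10.86 against 10.20 to 10.28 with WT-TAF3 sh-PIP4K2B, and 10.75 to 10.78 against 10.06 to 10.07 with shX. Of 12 differentiated muscle genes 2, 10 and 6 fell and 0, 0 and 1 rose, and the muscle list mean was 8.04 to 8.11 against 8.18 to 8.28 in KK-TAF3 cells, 8.04 to 8.18 against 9.02 to 9.07 in WT-TAF3 sh-PIP4K2B cells, and 8.18 to 8.24 against 8.62 to 8.69 in shX cells. The list mean of 7 genes of dividing cells was 11.17 to 11.19 against 11.14 to 11.17 in KK-TAF3 cells, 10.94 to 11.18 against 11.29 to 11.34 in WT-TAF3 sh-PIP4K2B cells, and 10.46 to 10.63 against 11.05 to 11.14 in shX cells. Of 8 myoblast genes 2, 4 and 3 rose and 0 fell, and Id3 rose in every genotype. Over the 3 genotypes the myoblast list mean was 9.82 to 9.94 on etoposide-treated arrays against 9.44 to 9.56 on differentiated ones. The part of these programmes in the changes of the 36 genes was not tested.

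Depletion of PIP4K2B shows which of these genes differ when this kinase is lowered and TAF3 is wild-type. The arrays do not measure PI5P. Ern1 was lower in depleted cells after etoposide, and Edem1, in the degradation pathway of the endoplasmic reticulum, was lower in both treatments without passing the fold limit. Ddit4 was higher in depleted cells after differentiation, at 1.399-fold, just short of the limit. By the call rule 0 of the 36 rose and 1 fell in etoposide-treated cells (0.321% and 0.547% of all genes). After differentiation 0 rose and 0 fell (0.682% and 0.376%). No change there reached 1.4-fold (-0.31 to 0.48), so an unadjusted p with the fold limit could add no gene. By the adjusted p alone, 1 was higher and 3 were lower after etoposide (1.04% and 2.11% of all genes) and 2 were higher and 1 lower after differentiation (3.21% and 2.93%).

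Ern1 read 10.05, 9.82 and 9.73 in etoposide-treated WT-TAF3 sh-PIP4K2B cells, against 10.50, 10.40 and 10.16 in shX cells. The highest depleted array lay below the lowest control array. The change was -0.49 (SE 0.101, 95% limits -0.70 to -0.28, limma adjusted p = 0.00914), or 1.402-fold lower, just past the limit. KK-TAF3 sh-PIP4K2B cells read 10.07, 10.07 and 9.78 after etoposide, 0.11 above WT-TAF3 sh-PIP4K2B cells (95% limits -0.10 to 0.32, limma adjusted p = 0.61). After differentiation Ern1 read 9.69, 9.88 and 9.73 in WT-TAF3 sh-PIP4K2B cells, against 10.10, 9.99 and 10.05 in shX cells, again without overlap, a change of -0.28 (SE 0.101, limma adjusted p = 0.0913). The difference between the treatments of -0.21 (95% limits -0.51 to 0.09) had an adjusted p of 0.316.

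The Ern1 call after etoposide depended on the arrays and the fit. Fitted on the 6 arrays compared, its adjusted p was 0.119, and with the array median as a covariate the change was -0.39. Leaving out shX replicate 1 or 2 gave -0.41 and -0.47, and leaving out sh-PIP4K2B replicate 2 or 3 gave -0.46 and -0.42, each short of 1.4-fold.

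Edem1 read 11.07, 11.00 and 10.93 in etoposide-treated WT-TAF3 sh-PIP4K2B cells, against 11.59, 11.49 and 11.36 in shX cells, and 10.69, 10.77 and 10.74 against 11.07, 11.06 and 11.02 after differentiation. In both treatments every depleted array lay below every shX array. The changes were -0.48 (SE 0.0705, limma adjusted p = 0.000569), which is 1.392-fold lower, and -0.31 (limma adjusted p = 0.0161). KK-TAF3 sh-PIP4K2B cells read 11.04, 11.05 and 10.86 after etoposide and 10.78, 10.77 and 10.74 after differentiation, so they differed from WT-TAF3 sh-PIP4K2B cells by -0.01 (95% limits -0.16 to 0.13) and 0.03 (-0.12 to 0.18). Edem1 passed 1.4-fold with arrays centred on their median (-0.52), without etoposide shX replicate 3 (-0.54) or without etoposide sh-PIP4K2B replicate 1 (-0.51).

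**Figure D3:**
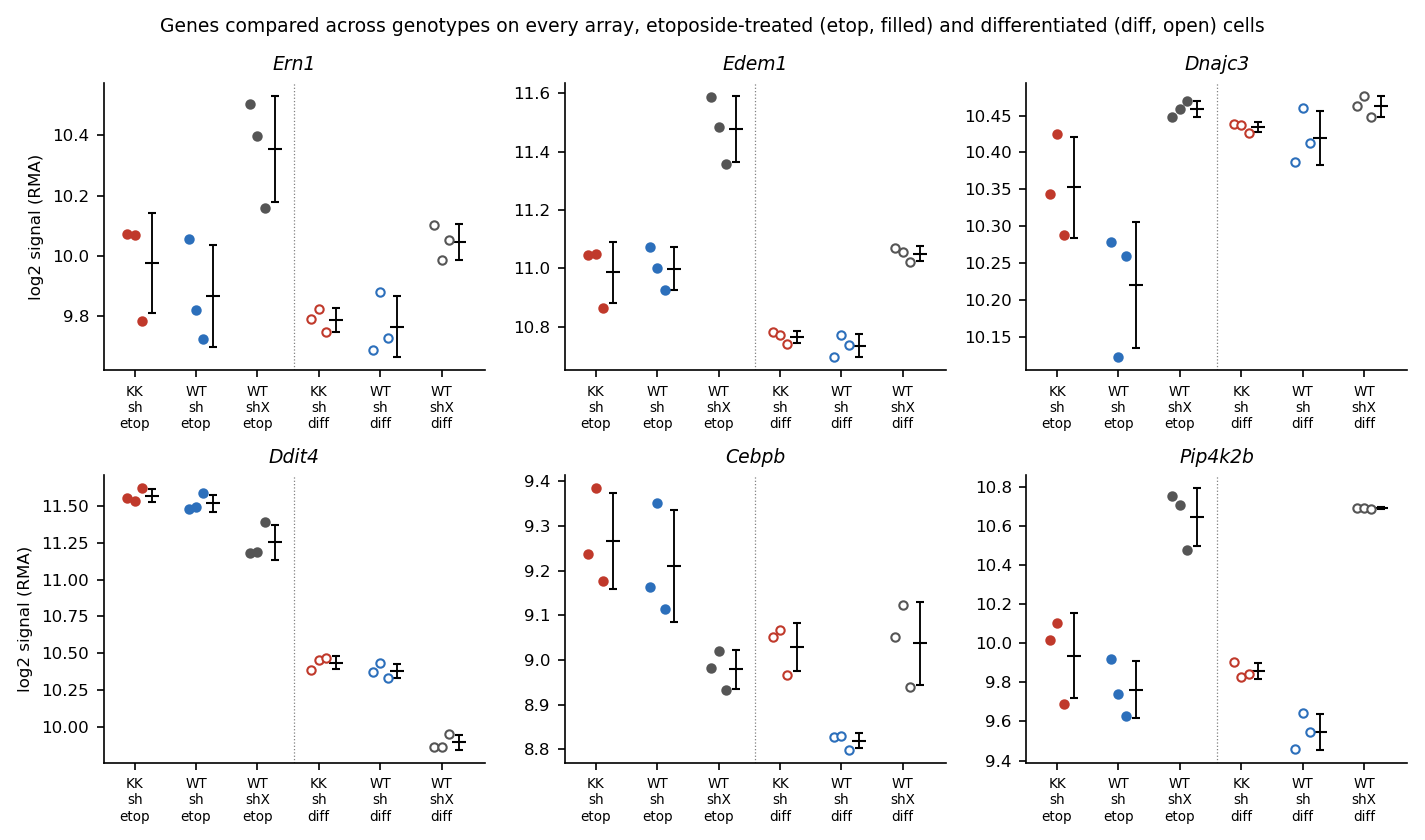
The log2 signal of 6 genes on every array of the KK-TAF3 sh-PIP4K2B, WT-TAF3 sh-PIP4K2B and WT-TAF3 shX cells, after etoposide (filled, left) and after differentiation (open, right), with the mean and SD of 3 arrays. Ern1, Edem1 and the targeted gene Pip4k2b stand lower with WT-TAF3 sh-PIP4K2B than with shX on all arrays in each treatment, and Ddit4 stands higher.

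Ddit4 was 10.37, 10.43 and 10.33 in differentiated WT-TAF3 sh-PIP4K2B cells, against 9.87, 9.87 and 9.95 in shX cells, and the KK-TAF3 sh-PIP4K2B cells read 10.39, 10.45 and 10.47. Every depleted array of both TAF3 forms lay above every shX array. The change was 0.48 (SE 0.0674, limma adjusted p = 0.000341) after differentiation and 0.27 (limma adjusted p = 0.0355) after etoposide. It was past 1.4-fold in differentiated cells with arrays centred (0.58), with the array median as a covariate (0.53), and without sh-PIP4K2B replicate 1 (0.49) or 3 (0.51) or shX replicate 3 (0.51). Ern1 also passed there, at -0.49, with that covariate. Mthfd2 differed by 0.28 (limma adjusted p = 0.0497) in differentiated cells.

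Muscle, p53 response and dividing-cell genes also differed between these groups. After differentiation the muscle list mean was 9.02 to 9.07 in WT-TAF3 sh-PIP4K2B cells against 8.62 to 8.69 in shX cells, with 4 of 12 genes called higher (0.682% of all genes). The p53 list mean was 10.20 to 10.28 against 10.06 to 10.07, and that of dividing cells 11.29 to 11.34 against 11.05 to 11.14. In these lists 0 genes were called. The part of these programmes in the Ddit4 difference was not tested. After etoposide the dividing-cell list mean was 10.94 to 11.18 in WT-TAF3 sh-PIP4K2B cells against 10.46 to 10.63 in shX cells, with 3 of 7 genes called higher (0.321% of all genes), and the part of those cells in the Ern1 value was not tested.

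After etoposide all 12 chaperones and folding enzymes were below shX in WT-TAF3 sh-PIP4K2B cells, with changes between -0.36 (Dnajb9) and -0.04 (Calr) and a median of -0.16, while the median was 0.02 over all genes and -0.05 over genes above the median signal, where all 12 lie. In related lists 25 of 27 other folding genes, 13 of 15 other degradation genes, 6 of 6 eIF2 regulators and 13 of 16 aminoacyl-tRNA synthetases were also below 0, and 0 of these were called. Other ATF4 and CHOP targets had 7 of 14 below 0, other amino acid genes 6 of 13 and other transducers 4 of 7. Over all genes 8709 of 19938 were not above 0. That share is not given here for genes above the median signal. Their median of -0.05 means that most of them were themselves below 0. On all depleted arrays 5 of the 12 lay below all shX arrays, against 8.02% of all genes. Dnajc3, which encodes an inhibitor of eIF2 kinases and cochaperone of BiP, had the lowest adjusted p, at 0.0352 for a change of -0.24 (10.28, 10.12 and 10.26 against 10.45, 10.46 and 10.47), and its 2 transcript clusters held the same values. On WT-TAF3 sh-PIP4K2B replicate 2 all 12 were at the lowest of the 3 arrays, for example 9.77 against 10.29 and 10.37 for Dnajb9. Without that array all 12 were still below shX, with a median of -0.10. After differentiation 6 of the 12 were above and 6 below shX, with a median of -0.01. The 7 amino acid genes were all above shX in etoposide-treated depleted cells, by 0.02 to 0.20, and none passed the adjusted p.

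The exchange of WT-TAF3 for KK-TAF3 in depleted cells asks whether the genes need TAF3 to bind phosphoinositides. It uses the same 3 WT-TAF3 sh-PIP4K2B arrays as the depletion, with the opposite sign, so the values of both comparisons are not independent. No gene of the 36 was called by limma in either treatment, where 0.341% of all genes were higher and 0.0652% lower after etoposide and 0.301% and 0.216% after differentiation. No change of the 36 reached 1.4-fold in either treatment, so an unadjusted p with the fold limit could give no count other than 0. By the adjusted p alone, 0 of the 36 passed after etoposide (0.687% of all genes higher and 0.211% lower) and 1 was higher after differentiation (0.572% and 0.406%). That gene was Atf5, a transcription factor related to ATF4. Atf5 read 10.32, 10.36 and 10.25 in differentiated KK-TAF3 sh-PIP4K2B cells, against 10.01, 10.05 and 10.07 in WT-TAF3 sh-PIP4K2B cells and 10.08, 10.12 and 10.14 in shX cells. The change of 0.27 (SE 0.0614, limma adjusted p = 0.0396) was 1.204-fold, and the groups did not overlap. After etoposide the Atf5 difference was -0.04 (95% limits -0.17 to 0.09).

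In differentiated cells all 12 muscle genes were lower in KK-TAF3 than in WT-TAF3 sh-PIP4K2B cells, and 9 of them were called (0.216% of all genes lower). The lowest change, -1.57, was that of Mymk, which is needed for myoblast fusion. The part of differentiation in the Atf5 difference was not tested. Changes of the 36 ran between -0.13 and 0.27 after differentiation and between -0.13 and 0.29 after etoposide, with medians of 0.03 and 0.05 (all genes 0.02 and -0.01). After etoposide 11 of the 12 chaperones were higher in KK-TAF3 than in WT-TAF3 sh-PIP4K2B cells, with a median of 0.12, as were 9453 of 19938 genes. The share among genes above the median signal, where all 12 lie, is not given here. The depletion comparison, in which all 12 were lower, used the same WT-TAF3 sh-PIP4K2B arrays.

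**Figure D4:**
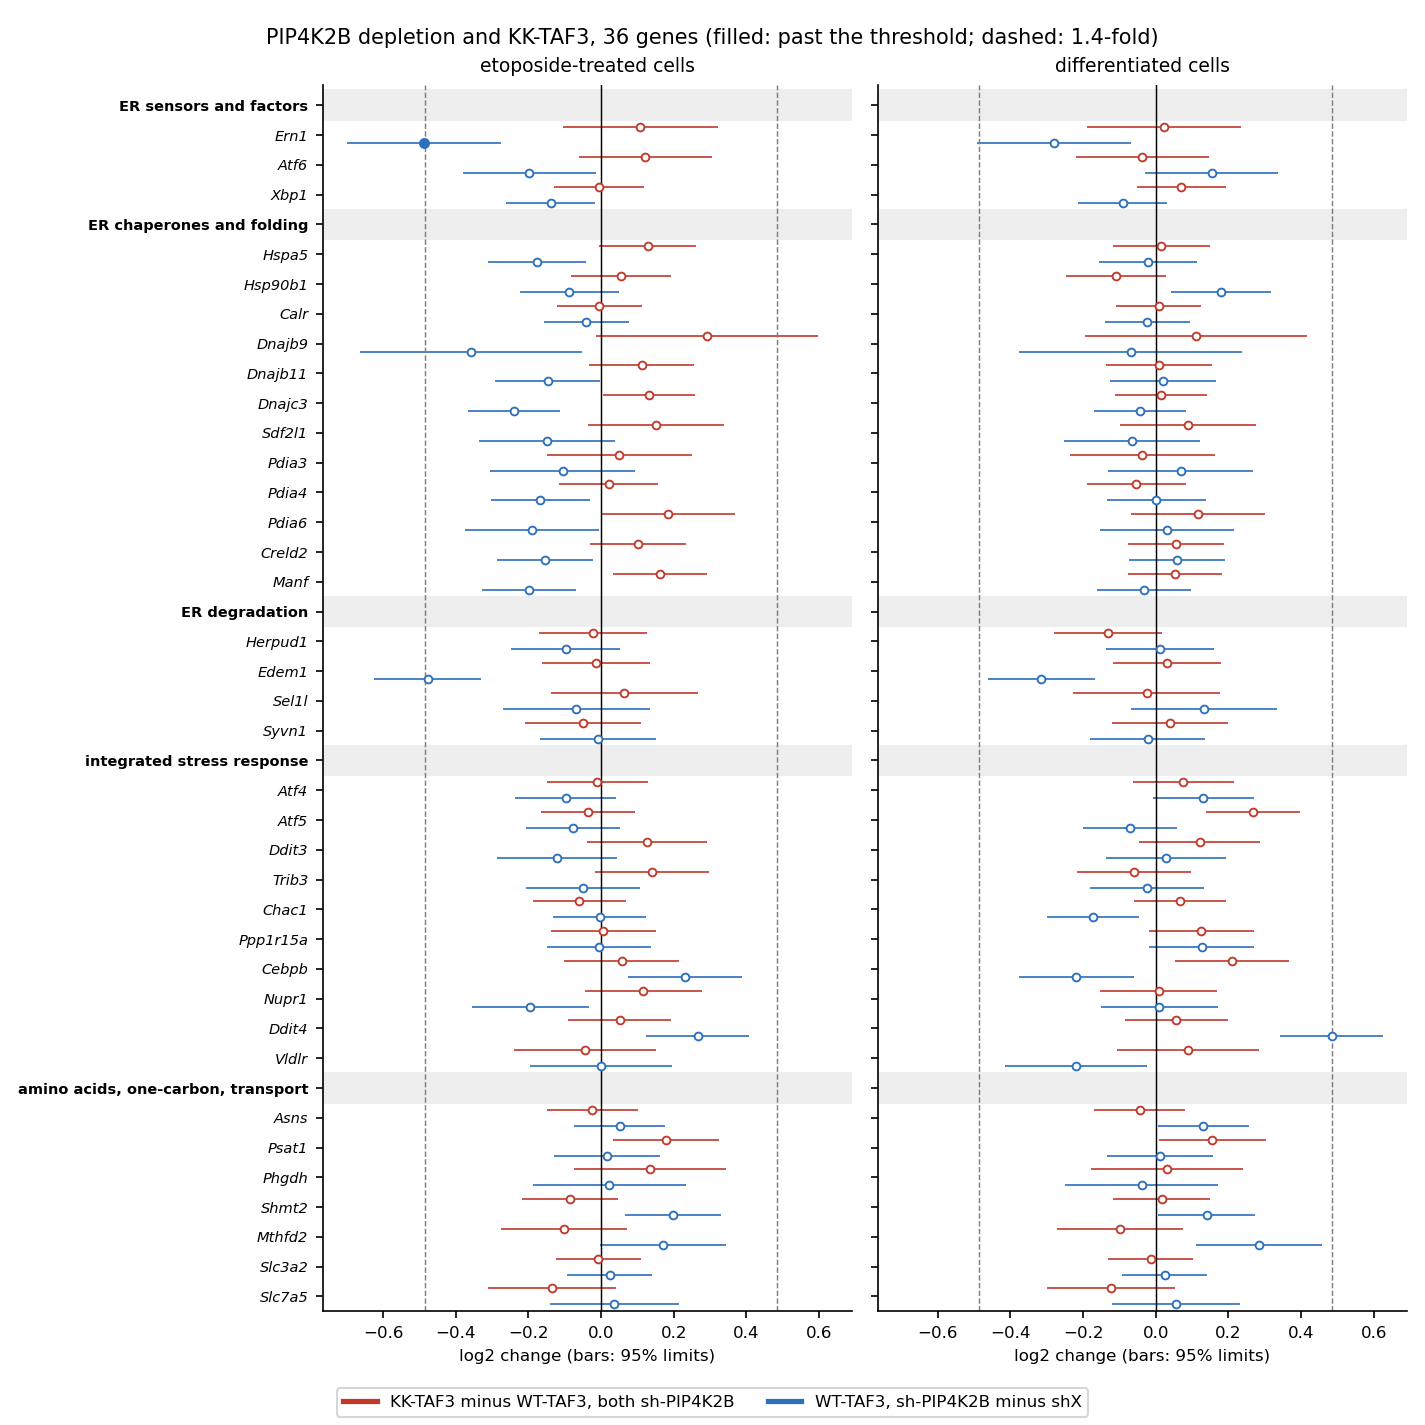
Change of each of the 36 genes on the log2 scale for KK-TAF3 minus WT-TAF3 (both with sh-PIP4K2B) and for sh-PIP4K2B minus shX (both with WT-TAF3), after etoposide (left) and differentiation (right), with 95% limits from limma. Ern1 after etoposide is the only filled point, at -0.49, while Edem1 after etoposide (-0.48) and Ddit4 after differentiation (0.48) lie just inside the dashed 1.4-fold lines, and Edem1 after differentiation (-0.31) and Ddit4 after etoposide (0.27) lie well inside them.

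The difference of the depletion effect between treatments, tested as an interaction, was called by limma for 0 of the 36 and for 4.02% of all genes, and that of the KK-TAF3 effect for 0 of the 36 and 0.15% of all genes. At an unadjusted p under 0.05 with the fold limit 0 and 0 of the 36 passed. By the adjusted p alone 1 gene, Cebpb, passed for depletion, against 6.67% of all genes. Cebpb, a transcription factor that pairs with ATF4, read 9.16, 9.35 and 9.11 in WT-TAF3 sh-PIP4K2B cells against 8.98, 9.02 and 8.93 in shX cells after etoposide, and 8.83, 8.83 and 8.80 against 9.05, 9.12 and 8.94 after differentiation. Depleted arrays were thus all above shX after etoposide and all below it after differentiation, by 0.23 (limma adjusted p = 0.12) and -0.22 (limma adjusted p = 0.0805). The difference of 0.45 (95% limits 0.23 to 0.67, limma adjusted p = 0.0263) was 1.366-fold.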

How the data were processed

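RNA of 18 C2C12 cultures in 6 groups of 3, biological triplicates by the series' design text, was hybridised to Affymetrix whole-transcript mouse gene arrays. The deposited log2 values were made by the authors with RMA in Affymetrix Expression Console, per the labels, and were used as deposited (version and genome build not given in the sources used here). Of 35556 transcript clusters, 21789 had 1 gene symbol in GEO's platform annotation, 1621 several and 12146 none; the paper names a later chip generation than this annotation. The brightest cluster stood for a gene, giving 19938 genes.

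1 limma model (limma 3.58.1, R 4.3.3) of the 6 group means over all 18 arrays, tested on simulated data, gave 9 contrasts, each with Benjamini-Hochberg adjustment over all genes. The simulated arrays had independent noise with the same SD in every group. They could not test for the wider spread after etoposide or for same-numbered arrays that deviate together. The model pools the spread of all groups, so an SE may be too small after etoposide and too large after differentiation. A gene was called at an adjusted p under 0.05 and a change above 1.4-fold. The 36 genes and all lists were chosen with earlier results of these data known. By rule, array values were given for genes called under depletion or KK-TAF3 and for up to 6 genes a direction called in all 3 genotypes; those of Atf4, Atf5, Atf6, Cebpb, Chac1, Cth, Dnajc3, Edem1, Hspa5 and Pdia6 were added after the values were seen.

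The labels number the replicates. Same-numbered etoposide arrays of WT-TAF3 sh-PIP4K2B and shX cells deviated together from their group means (r of 0.435, 0.332 and 0.559 over genes). A fit with the number as a block was therefore run for depletion after etoposide. Etoposide arrays of KK-TAF3 sh-PIP4K2B and shX cells, which are not compared here, also did so (0.169, 0.1 and 0.593). In no other pair of groups did all 3 values exceed 0.1. Alternatives were centred arrays, the array median as a covariate, other thresholds, a dim-gene filter, another variance prior, every cluster, fewer groups, a replicate block and each array left out; the block within the compared groups and the chaperone median without single arrays were added after seeing the data. Depth is not defined for arrays, and 3 arrays a group limit the precision. Figures used matplotlib 3.10.9.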

Additional observations from a re-analysis of the deposited data

Results flagged for a closer look

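Cebpb was singled out because its depletion effect differed between treatments in the interaction test. The difference was 0.4498 on the log2 scale (95% limits 0.23 to 0.67, limma adjusted p = 0.0263), which is under the 1.4-fold limit. Depleted WT-TAF3 cells averaged 9.21 against 8.98 in shX cells after etoposide, and 8.82 against 9.04 after differentiation, and neither difference passed alone. The difference between treatments was called without etoposide WT-TAF3 sh-PIP4K2B replicate 3 or differentiated shX replicate 3, at 0.50 in both cases. It was not called with any other single array left out. Of all genes, 6.67% passed the same interaction test by the adjusted p alone, and Cebpb was the only gene of the 36 to do so.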

How the results depend on the processing

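Of 151 alternative counts of called genes among the 36, 127 kept within the limits set for a stable count. Those limits compare the size of a count with the main one, whichever genes were called. The main count was 0 for depletion after differentiation, for KK-TAF3 in both treatments and for both differences between treatments. For KK-TAF3 no change came near 1.4-fold, so its counts had little room to differ from 0. Of 18 single calls, 11 held in every alternative run. Over 271 alternative values, 16 lost the call and 0 changed sign. These runs include an unadjusted p and no fold limit, which are looser than the main rule and could not lose a call. With no fold limit the counts were 3 for depletion after differentiation, 4 for depletion after etoposide, 1 for KK-TAF3 after differentiation, 16, 20 and 18 for etoposide in KK-TAF3 sh-PIP4K2B, WT-TAF3 sh-PIP4K2B and shX cells, and 1 for the difference of depletion between treatments. With arrays centred, depletion gave 1 after differentiation (Ddit4) and 2 after etoposide (Ern1, Edem1), and the difference between treatments 1 (Atf6, -0.49, limma adjusted p = 0.0452). With the array median as a covariate, depletion gave 2 after differentiation (Ern1, Ddit4) and 0 after etoposide, and with only the groups compared, 0 after etoposide. Leaving out single arrays gave 0 to 1 calls for depletion after differentiation, 0 to 2 after etoposide and 0 to 1 for the difference between treatments. Chac1 and Trib3 passed 1.4-fold in KK-TAF3 cells without single arrays (up to 0.51 and 0.50), Chac1 also with the covariate (0.49), and Mthfd2 (up to 0.50) and Edem1 (0.49) in shX cells. Under the replicate block Ern1 kept its call after etoposide (limma adjusted p = 0.00381, and 0.00815 within the 2 groups compared), so the count stayed at 1, and no other call among the 36 changed with the block.

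Counts over all genes moved more. With no fold limit they were 1225 against 211 for depletion after differentiation, 628 against 173 after etoposide, 195 against 103 and 179 against 81 for KK-TAF3 after differentiation and etoposide, and 5067 against 1661, 6925 against 1983 and 4609 against 1522 for etoposide in KK-TAF3 sh-PIP4K2B, WT-TAF3 sh-PIP4K2B and shX cells. The difference of depletion between treatments ranged between 96 (array median as a covariate) and 1365 (unadjusted p), against 801, and between 180 and 2668 without single arrays. For KK-TAF3 the blocked fit within the groups compared gave 39 after differentiation and 22 after etoposide. Centred arrays gave 349 for depletion after differentiation, and the fit of only the groups compared gave 99 after etoposide. The difference for KK-TAF3 ranged between 15 and 143, against 30. Higher genes made up 64.5% of the calls for depletion after differentiation, 91.1% with centred arrays and 40.3% with the covariate. After etoposide those shares were 37%, 20.3% and 54.2%, for KK-TAF3 after etoposide 84%, 90.5% and 73.2%, for etoposide in WT-TAF3 sh-PIP4K2B cells 36.6%, 17.2% and 51.4%, in KK-TAF3 cells 42.3%, 29.7% and 52.3%, and for the difference of depletion 48.4%, 4.87% and 40.6%. Centring moved the median of all genes for that difference to -0.10, against 0.04. The causes were not tested.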
